A study of Mus musculus with 11 samples.

Results

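Bone morphogenetic protein (BMP) signalling was described here through 9 genes in single cells of the floor epithelium of the mouse cochlear duct. The genes were the ligands Bmp2, Bmp4 and Bmp7, the genes of the secreted BMP-binding proteins follistatin (Fst) and Bmper, the activin subunit gene Inhba, and the receptor subunits Bmpr1a, Bmpr1b and Bmpr2. They were taken by symbol and were all found among the 18667 genes present in the tables of all 4 ages. All libraries came from wild-type CD1 mice of either sex, with no treatment, and each was a separate 10x Chromium capture of duct epithelium dissociated from the pooled cochleae of several animals. E14 had 2 libraries (5253 cells), E16 had 3 (7961 cells), P1 had 4 (14043 cells) and P7 had 2 (3377 cells). Pooling leaves differences between single animals out of reach, and the spread of levels given below is that between captures.

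BMPs are secreted dimers that assemble a complex of type I and type II serine/threonine kinase receptors, whose type I subunit phosphorylates the transcription factors SMAD1, SMAD5 and SMAD9. Their reach is set by secreted proteins that bind the ligands, among them follistatin, and by inhibitory SMADs made in response to the signal. In the developing cochlea, Bmp4 is known as a gene of the lateral side of the duct, next to the prosensory cells that form the organ of Corti. The comparisons below ask where along the medial to lateral axis each of these components was expressed and how that changed from E14 to P7.

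Cells were clustered without the 9 genes and without the other pathway genes, and each cluster was placed along the axis by lists of marker genes, so the names are given as "-like". The medial domain held interdental-like cells and medial and lateral Kölliker's organ-like (KO-like) cells. The sensory domain held medial supporting-like cells, hair cell-like cells and lateral supporting-like cells. At E14 the medial supporting-like cluster was led by Fgf20 and the lateral one by Fgfr3 and Prox1. The study uses these genes as markers of medial and lateral prosensory cells. At E16 and P1 the medial supporting-like cluster was led by Matn4, which the study gives for inner phalangeal cells at P1. A name shared by ages therefore need not stand for the same cell type. The lateral domain held Hensen-like cells and cells of the lesser epithelial ridge and outer sulcus (LER/OS-like). No Hensen-like or lateral KO-like cluster was found at E14 and no interdental-like cluster at P7. The P7 tables held 16 LER/OS-like and 19 Hensen-like cells, which are described but were left out of the tests. LER/OS-like cells had 0 to 2 markers of the joint Hensen and outer sulcus lists among their 10 leading genes. Bmp4 and Fbln2 were among these genes at every age. Of the outer sulcus markers only Lmo3 was among them, at E14 and P1. At E16 the only marker was Gata2, from the Hensen list. The KO-like names at P7 rested on few markers as well. Median depth was 2478 to 5647.5 unique molecular identifiers (UMIs) per cell, and 1247 to 5598 cells were held per library. No pair of libraries shared more than 36 cell barcodes. For E14 and P7 the study's text gives a cell count below that of the table, and for P7 it also gives one near it. Over 3000 genes or 15000 UMIs were held by 892 cells of E14, 149 of E16, 1134 of P1 and 265 of P7.

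Levels are CPM, the UMIs of a gene scaled to a common total per cell, averaged over the cells of a region in a library. Differences are log2 differences of the mean of log2(CPM + 10) over libraries, tested with limma over 11082 genes, and a call is a Benjamini-Hochberg adjusted p under 0.05. This scale understates changes of low genes. A domain is compared with the mean of the other domains at its age, and at P7 the sensory domain is compared with the medial domain. Bmpr1b fell below the filter of 5 CPM, so 8 of the 9 genes were tested.

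Bmp4 lies on chromosome 14 from 46383520 to 46390669 (minus strand, GRCm38) and its annotation overlaps Gm15217 and Gm15222. Bmp2 (chromosome 2, 133552159 to 133562885) and Bmp7 (chromosome 2, 172868012 to 172940321) overlap no other annotated gene. Fst (chromosome 13, 114452290 to 114458951) overlaps Gm47040, and Bmper (chromosome 9, 23223076 to 23485200) overlaps none. Inhba (chromosome 13, 16011851 to 16031621) overlaps B230303A05Rik and Gm48444. Bmpr1a (chromosome 14, 34410734 to 34503341) overlaps Gm17110, Bmpr2 (chromosome 1, 59763400 to 59879014) overlaps Gm38125 and Bmpr1b (chromosome 3, 141837136 to 142169425) overlaps none. Where genes overlap, reads of one can be told from the other's only by strand and exon, and the sources used here do not state how such reads were counted.

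The sequence just upstream of the start site is shown for Bmp4 and Bmper, whose levels followed each other most closely over regions, and for Inhba, whose levels did not. These are the 250 bases before the RefSeq start on GRCm38.p6, in lower case, with GGAGCC or its reverse complement GGCTCC in capitals. That string, GGCGCC, and CAGAC (reverse complement GTCTG) are core letters of SMAD binding elements, and both strands were searched. RefSeq promoters were at hand for 6 of the 9 genes. Among those not shown, Bmpr1a and Bmpr2 held GGCGCC 1 time each, and Bmpr1b held CAGAC and GGAGCC in some of its windows.
Bmp4, chr14:46390670-46390919, minus strand: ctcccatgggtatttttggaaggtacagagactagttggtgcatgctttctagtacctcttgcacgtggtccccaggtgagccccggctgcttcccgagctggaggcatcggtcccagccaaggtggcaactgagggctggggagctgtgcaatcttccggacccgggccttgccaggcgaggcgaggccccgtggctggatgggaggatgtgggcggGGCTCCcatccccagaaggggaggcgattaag
Bmper, chr9:23222826-23223075, plus strand: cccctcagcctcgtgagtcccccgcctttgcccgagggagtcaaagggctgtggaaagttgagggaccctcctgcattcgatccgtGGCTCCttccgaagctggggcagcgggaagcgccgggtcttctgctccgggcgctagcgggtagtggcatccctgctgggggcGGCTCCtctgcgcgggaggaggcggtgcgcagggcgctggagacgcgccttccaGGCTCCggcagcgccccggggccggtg
Inhba, chr13:16011601-16011850, plus strand: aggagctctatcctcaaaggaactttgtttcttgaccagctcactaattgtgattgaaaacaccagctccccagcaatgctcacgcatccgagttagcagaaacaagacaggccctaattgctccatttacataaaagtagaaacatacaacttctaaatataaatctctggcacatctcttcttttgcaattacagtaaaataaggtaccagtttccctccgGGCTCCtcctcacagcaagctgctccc
GGAGCC on either strand was found 1 time upstream of Bmp4, 3 times upstream of Bmper and 1 time upstream of Inhba, and 26.0% of 32851 promoter windows of the same length held it. Neither GGCGCC, held by 9.59% of windows, nor CAGAC, held by 42.2%, was found in these 3 windows. GC content was 63.2% for Bmp4, 71.6% for Bmper and 43.2% for Inhba.

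Of the 3 ligands, Bmp2 was placed apart from Bmp4 and Bmp7. Bmp4 was concentrated in LER/OS-like cells at every age, among placed regions Bmp2 was highest in hair cell-like and lateral supporting-like cells up to P1, and Bmp7 was highest in LER/OS-like cells. At E14, E16 and P1 the 3 domain differences of a gene cancel out by construction, so they are not separate results. Of 24 tests of the 8 genes over 3 domains, 15 were called at E14, against 7.57% over all genes and domains. At E16 18 of 24 were called, against 23.4%, and at P1 17 of 24, against 29.3%. At P7 2 of 8 were called, a share close to the 25.8% of all genes. By domain, 7.9% of all genes were called in the medial, 10.4% in the sensory and 4.45% in the lateral contrast at E14. The same shares were 20.5%, 28.3% and 21.3% at E16 and 28.8%, 34.6% and 24.5% at P1.

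**Figure D1:**
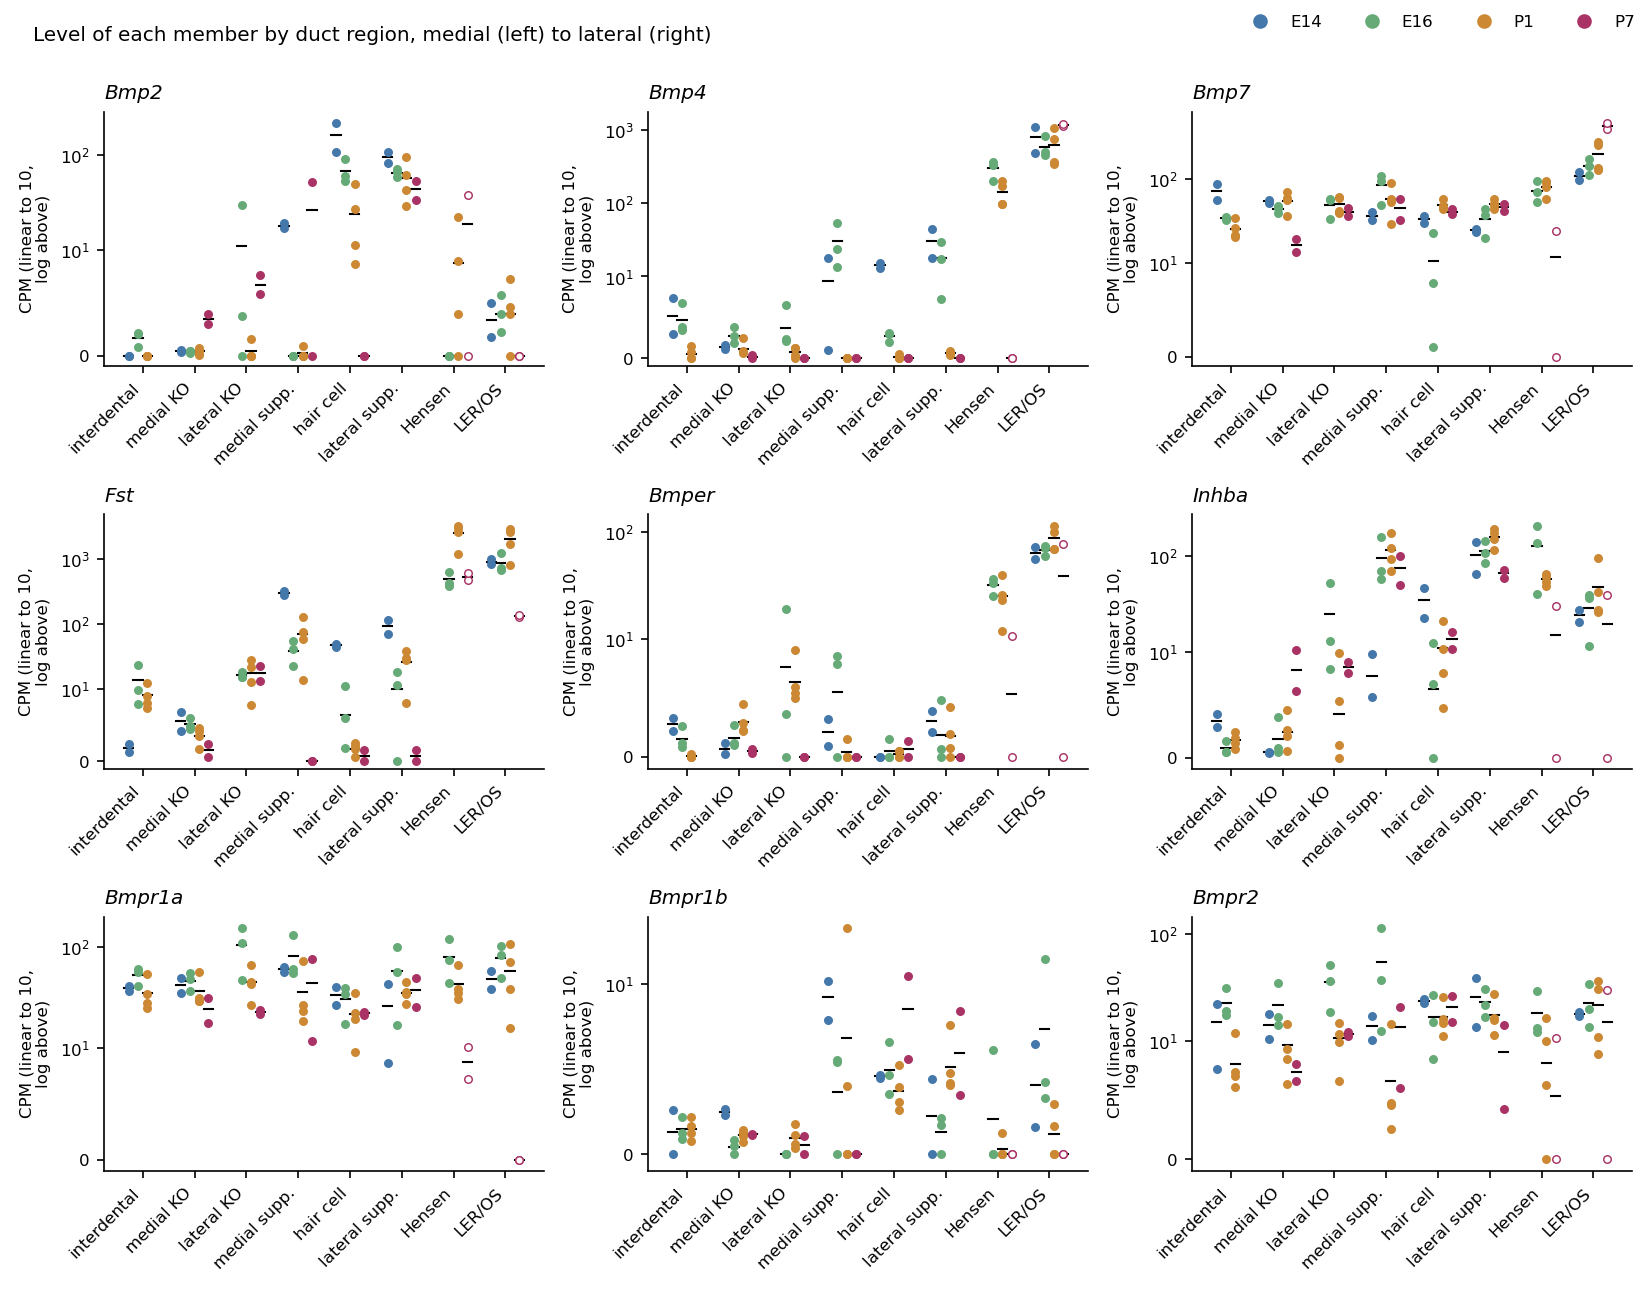
Level of each of the 9 genes (CPM, axis linear up to 10 and logarithmic above) in each library, by region from medial to lateral, with ages in colour. Open symbols mark library values that were not in the tests. From E14 to P1, Bmp4, Fst and Bmper stood highest in the lateral regions and Bmp2 in hair cell-like and lateral supporting-like cells, whereas at P7 Bmp4 was at 0 in Hensen-like and Bmp2 at 0 in hair cell-like cells, and Bmpr1a and Bmpr2 overlapped widely between regions.

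Bmp4, a founding BMP ligand, was read at 1085 and 489 CPM in the 2 E14 libraries of LER/OS-like cells, at 447, 494 and 825 CPM in the 3 E16 libraries and at 1058, 364, 337 and 751 CPM in the 4 P1 libraries. Every one of these values lay above every value of Bmp4 in the medial and sensory regions at the same age, of which the highest was 54.3 CPM in medial supporting-like cells of E16 replicate 1. The lateral domain exceeded the other domains by 5.34 at E14 (SE 0.30, limma's adjusted p = 8.35e-25), by 4.55 at E16 (SE 0.18, adjusted p = 9.69e-34) and by 4.78 at P1 (SE 0.16, adjusted p = 1.36e-39). LER/OS-like cells made up 13.7% of E14 cells and held 91.0% of the Bmp4 UMIs of that age. They made up 8.78% of cells and 87.8% of Bmp4 UMIs at E16, and 1.59% of cells and 85.6% of Bmp4 UMIs at P1.

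With every cell thinned to 1500 UMIs, Bmp4 was detected in 59.4% of 722 LER/OS-like cells at E14 (95% exact binomial interval 55.7 to 63.0), in 48.8% of 699 at E16 (45.02 to 52.6) and in 55.6% of 223 at P1 (48.8 to 62.2). Without thinning the Bmp4 shares were 84.1%, 67.2% and 74.0%. These intervals cover counting error only. In hair cell-like cells the thinned Bmp4 share was 3.12% at E14, 0.334% at E16 and 0.0951% at P1, where the median depth of hair cell-like cells was 6705 UMIs and that of LER/OS-like cells 5988. At P7 Bmp4 was detected in 14 of 16 LER/OS-like cells, which read 1128 and 1215 CPM in the 2 libraries and held 80.8% of all Bmp4 UMIs of that age.

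Hensen-like cells carried less Bmp4 than their LER/OS-like neighbours. At E16 the Hensen-like values were 200, 329 and 362 CPM, below all 3 LER/OS-like values, with a difference of -0.95 (SE 0.31, limma's adjusted p = 0.0244). At P1 they were 98.4, 98.5, 202 and 170 CPM, again below all LER/OS-like values, with a difference of -1.97 (SE 0.27, adjusted p = 2.88e-08). The E16 Bmp4 call was lost in a fit with limma's sample weights, chosen after the data were seen (adjusted p = 0.241), and without E16 replicate 1 or E16 replicate 3, while the P1 call was kept in every alternative. At P7 no Bmp4 UMI was found in the 19 Hensen-like cells, where 3 counts would have been 23.7 CPM.

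Bmp4 in the sensory domain was low and fell further. Medial supporting-like cells read 54.3, 13.4 and 23.6 CPM at E16 and 0 in all 4 P1 libraries, and lateral supporting-like cells read 29.1, 7.23 and 17.1 CPM at E16 and 0.373 to 0.827 CPM at P1. The E16 and P1 values did not overlap in either region. They rest on 11 Bmp4 UMIs at E16 and 0 at P1 in medial supporting-like cells, and on 14 and 4 in lateral supporting-like cells. Ambient RNA was not removed, and the Bmp4-rich LER/OS-like cells went from 8.78% to 1.59% of cells in this step. The part of ambient RNA in these low levels was not tested. Over the sensory domain Bmp4 fell by 1.17 from E16 to P1 (SE 0.23, limma's adjusted p = 7.88e-05), a call that was lost with a pseudocount of 50 CPM. The medial domain changed by -0.33 in the same step and the steps of the 2 domains differed by -0.84 (SE 0.24, adjusted p = 0.0234), where 4.91% of all genes were called.

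Bmp2, a ligand close to BMP4 in sequence, was placed differently. It read 216 and 109 CPM in hair cell-like cells at E14, 53.7, 60.4 and 91.4 CPM at E16, 8.71, 26.9, 11.5 and 49.4 CPM at P1 and 0 in both P7 libraries, where 3 counts would have been 1.54 CPM. In lateral supporting-like cells it read 108 and 82.4 CPM at E14, 59.0 to 72.1 CPM at E16, 28.9 to 95.3 CPM at P1 and 53.7 and 33.5 CPM at P7. The hair cell-like values at successive ages did not overlap, whereas in lateral supporting-like cells the P1 values overlapped those of each other age, and the E14, E16 and P7 values did not overlap one another. In the other regions tested the mean level of Bmp2 was at most 26.3 CPM, and in medial KO-like cells at most 3.49 CPM. An unplaced E16 cluster of 428 cells with Tectb, Prox1 and Lor as leading genes read 61.7 to 158 CPM, a mean of 97.4 CPM that was above every placed region of that age, and held 28.5% of the Bmp2 UMIs of that age. That cluster scored 1.04 on the lateral supporting and 0.92 on the medial supporting marker list. Its range overlapped the E14 lateral supporting-like values. At E14 the cells set aside for mixed markers, 5.65% of cells, held 21.0% of the Bmp2 UMIs, so the Bmp2 levels and the step between these ages leave out both shares.

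The sensory domain exceeded the others in Bmp2 by 2.75 at E14 (SE 0.26, limma's adjusted p = 3.73e-14), by 1.65 at E16 (SE 0.18, adjusted p = 1.04e-11) and by 1.11 at P1 (SE 0.16, adjusted p = 1.63e-08). The lateral domain was lower in Bmp2 by 1.09 at E14 (adjusted p = 0.0417) and by 0.92 at E16 (adjusted p = 0.000353), and at P1 its difference was -0.12 (SE 0.18, adjusted p = 0.685). Bmp2, like Bmp4, was lower in the medial domain at E14, E16 and P1. From E14 to E16 the sensory level of Bmp2 fell by 1.02 (SE 0.30, adjusted p = 0.0163), but this call was lost without either E14 replicate and without E16 replicate 1 or 2. Within the sensory domain, lateral supporting-like cells exceeded the mean of the other regions by 1.45 at E16 (SE 0.30, adjusted p = 0.000241), by 1.83 at P1 (SE 0.26, adjusted p = 3.85e-08) and by 1.73 at P7 (SE 0.37, adjusted p = 0.000258, lost without P7 replicate 5). At E16 the hair cell-like mean of Bmp2 (68.5 CPM) was close to the lateral supporting-like mean (65.7 CPM), and medial supporting-like cells read 0 in all 3 libraries. At E14 the difference of lateral supporting-like cells was 0.62 (SE 0.37, adjusted p = 0.558). After thinning, Bmp2 was detected in 17.2% of 64 hair cell-like cells at E14 (8.90 to 28.7), 8.01% of 599 at E16 (5.97 to 10.5), 4.37% of 1052 at P1 (3.22 to 5.79) and in 0 of 265 at P7 (upper bound 1.38). The lateral supporting-like share of Bmp2 was 9.02%, 6.03%, 6.55% and 5.77% at the same ages, with overlapping intervals. In medial KO-like cells the thinned Bmp2 share was 0.0733% at E14, 0.0893% at E16 and 0.0319% at P1, at median depths of 2742, 2427 and 4544 UMIs.

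Bmp7, a ligand that can pair with BMP2 or BMP4 in heterodimers, gave at least 1 UMI in every library of every region tested. Ambient RNA was not removed, and whether low levels of Bmp7 come from the cells themselves was not tested. LER/OS-like cells read 96.3 and 121 CPM at E14, 169, 142 and 111 CPM at E16 and 273, 132, 252 and 125 CPM at P1. At P7 the 16 LER/OS-like cells read 383 and 449 CPM of Bmp7. The lateral domain was higher by 1.13 at E14 (SE 0.26, limma's adjusted p = 0.00252), 1.24 at E16 (SE 0.16, adjusted p = 2.73e-09) and 1.23 at P1 (SE 0.14, adjusted p = 1.59e-11). The E14 call was lost without either E14 replicate. Hensen-like cells were below LER/OS-like cells in Bmp7 by 0.89 at E16 (adjusted p = 0.0174) and by 1.14 at P1 (adjusted p = 0.000328), and the medial domain was lower by 0.38 at E16 (adjusted p = 0.0485). Both E16 calls were lost with sample weights (adjusted p = 0.193 and 0.0772). Next in order at P1 were Hensen-like cells at 79.0 ± 15.9 CPM (SD, n = 4) and then 5 regions between 49.0 and 57.4 CPM, whose library values overlapped one another, and interdental-like cells came last at 25.4 ± 6.18 CPM. Interdental-like cells were below the KO-like regions by 0.81 (SE 0.21, adjusted p = 0.00423, lost without P1 replicate 2 or 4).

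In hair cell-like cells Bmp7 was lowest at E16. It read 36.4 and 30.1 CPM at E14, 22.6, 7.85 and 1.09 CPM at E16, 47.2, 57.9, 44.2 and 46.8 CPM at P1 and 43.2 and 37.8 CPM at P7. The E16 hair cell-like values thus lay below those of every other age, and after thinning 0.501% of 599 cells held a Bmp7 UMI (0.103 to 1.46). Over the whole sensory domain Bmp7 rose by 0.56 from E16 to P1 (SE 0.20, limma's adjusted p = 0.0494), a call lost in 14 alternatives, the weighted fit among them (adjusted p = 0.0613). In the medial domain Bmp7 fell by 0.75 from P1 to P7 (SE 0.26, adjusted p = 0.0296). Medial KO-like cells read 35.8 to 69.8 CPM at P1 and 19.1 and 13.5 CPM at P7, without overlap. Lateral KO-like cells, the other region in this step, read 39.5 to 61.0 CPM at P1 and 36.4 and 45.04 CPM at P7, with overlap. That call was lost without P1 replicate 2 or 3 and without either P7 replicate.

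**Figure D2:**
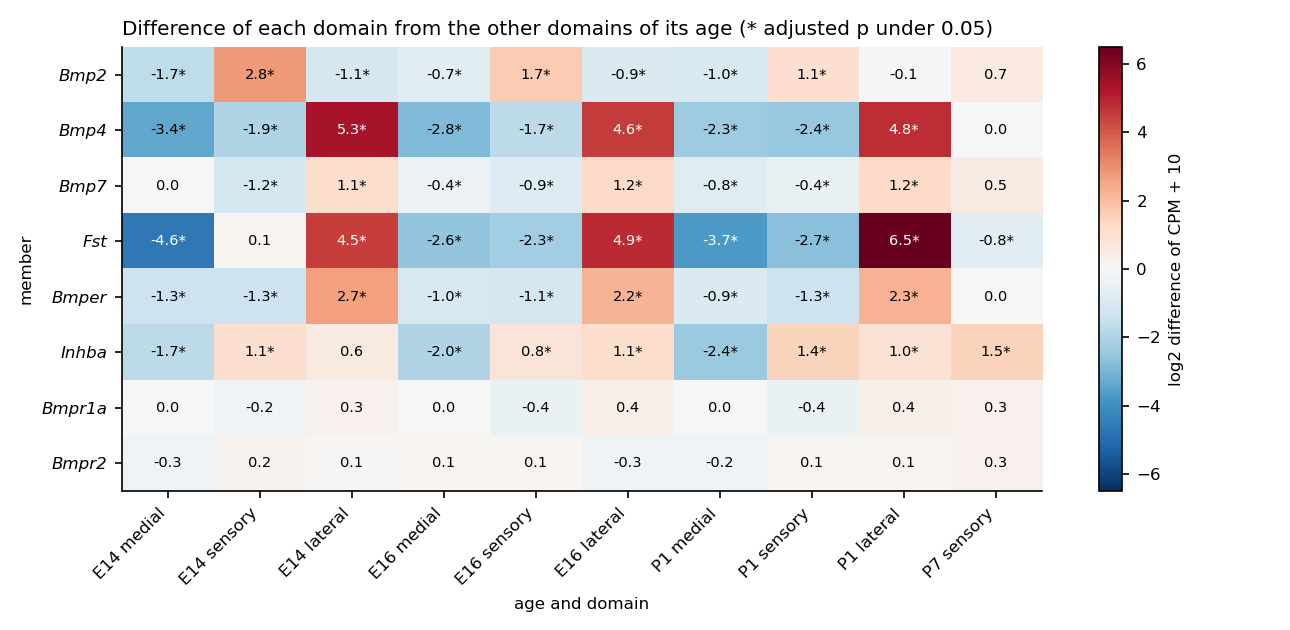
Log2 difference of each domain from the other domains at the same age (at P7 sensory minus medial), for the 8 genes tested, with called differences marked. Lateral differences of Bmp4, Fst and Bmper exceeded 2 at E14, E16 and P1, while none of the Bmpr1a and Bmpr2 differences was called.

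Fst, Bmper and Inhba were not distributed alike. Fst encodes follistatin, a secreted protein that binds activins with high affinity and also BMPs. In LER/OS-like cells Fst read 846 and 999 CPM at E14, 676, 724 and 1263 CPM at E16 and 822, 2916, 2661 and 1720 CPM at P1. In Hensen-like cells it read 438, 385 and 647 CPM at E16 and 1217, 3269, 3057 and 2677 CPM at P1, so the E16 and P1 values of Fst did not overlap there. All these values lay above those of every medial and sensory region of the same age, where the highest value of Fst at E16 or P1 was 131 CPM.

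The lateral domain was higher in Fst by 4.51 at E14 (SE 0.32, limma's adjusted p = 4.20e-19), by 4.85 at E16 (SE 0.20, adjusted p = 2.19e-33) and by 6.46 at P1 (SE 0.17, adjusted p = 1.23e-45). The lateral level of Fst rose by 1.69 from E16 to P1 (SE 0.28, adjusted p = 5.29e-06), from a mean of 689 to 2292 CPM. This rise exceeded the step of the medial domain by 1.83 (SE 0.29, adjusted p = 2.87e-05, where 1.52% of genes were called) and that of the sensory domain by 1.37 (SE 0.29, adjusted p = 0.00178, where 4.91% were called). The Fst rise was 0.93 to 2.04 over all alternatives, and it was not called with regions of at least 30 cells only (adjusted p = 0.131). P1 replicate 1 had the lowest Fst in both lateral regions and the highest Bmp4 in LER/OS-like cells. At P7 the few lateral cells read Fst at 131 and 141 CPM in LER/OS-like and 476 and 613 CPM in Hensen-like cells.

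Fst was also present on the medial side of the early sensory domain, and at E14 its level declined without overlap from LER/OS-like to medial supporting-like, lateral supporting-like and hair cell-like cells. Medial supporting-like cells read 323 and 287 CPM at E14, 22.9, 54.4 and 40.9 CPM at E16, 14.0, 77.2, 58.4 and 131 CPM at P1 and 0 in both P7 libraries, where 3 counts would have been 14.2 CPM. Lateral supporting-like cells read 118 and 71.2 CPM of Fst at E14 and at most 18.1 CPM at E16. The sensory domain fell by 2.35 from E14 to E16 (SE 0.29, limma's adjusted p = 4.50e-09), while the medial and lateral domains changed by 0.46 and -0.11. Medial supporting-like, hair cell-like and lateral supporting-like cells held 335, 24 and 78 Fst UMIs at E14 and 16, 19 and 17 at E16. The cells set aside at E14 held 285, and the unplaced E16 cluster with Tectb, Prox1 and Lor as leading genes held 141. The sensory step of Fst leaves out both, and their part in it was not tested. The lateral and medial steps were compared as well, where 0.0722% of genes were called and Fst was not. The sensory step differed from the medial one by -2.81 (SE 0.35, adjusted p = 5.28e-08) and the lateral step exceeded the sensory one by 2.24 (SE 0.44, adjusted p = 0.00248), in tests where 1.44% and 0.28% of all genes were called. From P1 to P7 the sensory Fst level fell again, by 1.51 (SE 0.28, adjusted p = 2.25e-05), which differed from the medial step by -1.43 (SE 0.33, adjusted p = 0.000933, where 13.3% of genes were called). That last fall was lost with coarser clusters, with a gate on single cells and with means of the deposited log values. The E14 and E16 cells of one name were clustered separately, and the part of differences in cell make-up in the age steps was not tested.

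**Figure D3:**
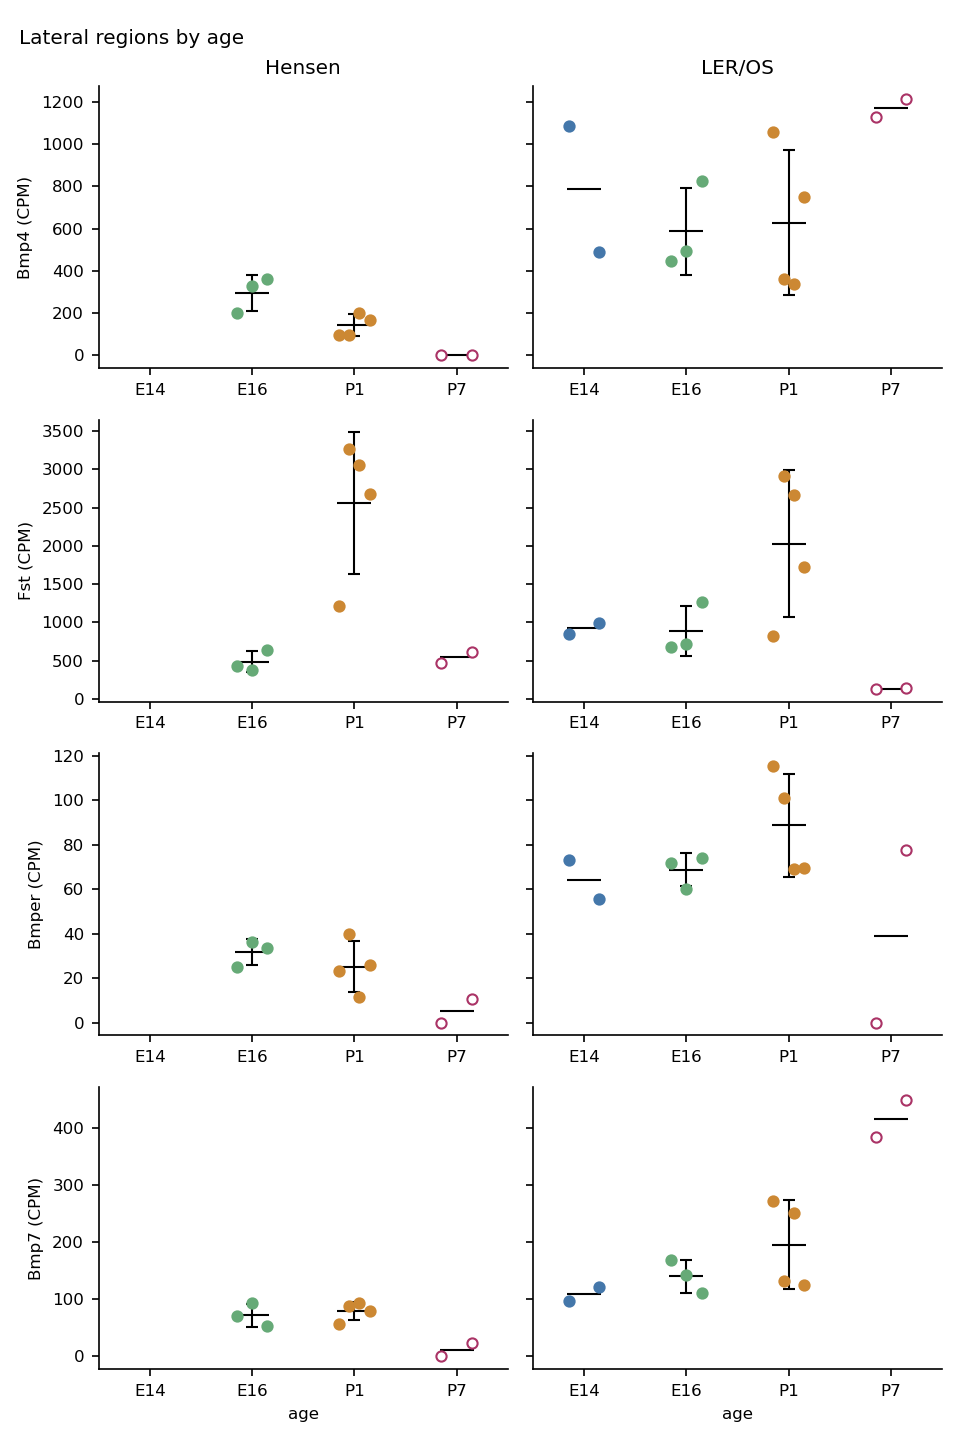
Levels of Bmp4, Fst, Bmper and Bmp7 (CPM) by age in LER/OS-like and Hensen-like cells, one point per library. Horizontal marks are means, with SD bars where there were at least 3 libraries, and open circles mark libraries that were not in the tests. Mean Fst was higher at P1 than at E16 in both regions, with overlapping libraries in LER/OS-like cells, and Bmp4 was higher in LER/OS-like than in Hensen-like cells at E16 and P1.

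A part of Fst expression lay in cells that the markers did not place. At E14 a cluster of 188 cells led by Tac1, Fst and Nr2f2, which scored about alike on the medial supporting and lateral marker lists (0.59 and 0.57), read 1739 and 1838 CPM and held 32.3% of all Fst UMIs of that age, against 53.3% in LER/OS-like cells. Bmp4 in that cluster was 62.9 and 127 CPM, below its level in LER/OS-like cells. At P7 unplaced cells held 86.7% of the Fst UMIs, of which a cluster of 183 cells led by Cnmd, Fst and Gpx3 held 61.2% at 521 and 614 CPM. Cnmd was also among the leading genes of the P7 Hensen-like and LER/OS-like cells. The P7 comparison of Fst between domains therefore left out most of its UMIs.

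Markers of other cell kinds were read in the lateral cells as well. At P1, 6 of 8 mesenchyme markers were at 0 in Hensen-like cells (sum 0 to 11.3 CPM over libraries) and 4 of 8 in LER/OS-like cells (0.978 to 97.8 CPM). The roof list summed to 175 to 363 CPM in Hensen-like and 155 to 1497 CPM in LER/OS-like cells. The Hensen list summed to 8003 to 10606 CPM in Hensen-like and 1810 to 2121 CPM in LER/OS-like cells. The part of other cells in the lateral levels of Bmp4, Fst and Bmper was not tested.

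The LER/OS-like cells were themselves mixed in Bmp4 and Fst. At E16 they formed 3 clusters, and the cluster of 239 cells with Fbln2 among its leading genes read 797 to 1362 CPM of Bmp4 and 467 to 580 CPM of Fst over 3 libraries. The cluster of 170 cells led by Tac1, Fst and Hmga2 read 278 to 506 CPM of Bmp4 and 1374 to 2261 CPM of Fst, so the library ranges of the 2 clusters did not overlap for either gene. In the remaining cluster of 290 cells, led by Lgals1 and Lmx1a, Bmp4 was 227 to 590 CPM and Fst 372 to 1215 CPM. At E14 the ranges of the clusters were apart for Fst only. There the cluster led by Tac1, Bmp4 and Fbln2 read 495 to 1175 CPM of Bmp4 and 1170 to 1396 CPM of Fst. That led by Fbln2 and Lmo3 read 570 to 1217 and 901 to 983 CPM, and that led by Lgals1 420 to 928 and 520 to 615 CPM. Bmp4 thus overlapped between the 3 clusters, while Fst did not. The lower and the higher Bmp4 value both rose from the Lgals1 to the Tac1 to the Fbln2 and Lmo3 cluster. At P1, where a single LER/OS-like cluster was found, Fst was detected after thinning in 46.8% of the 124 cells with a Bmp4 UMI and in 73.7% of the 99 cells without one. At E14 the shares were 58.7% and 59.0%, and at E16 53.1% and 51.4%. The P1 shares pool 4 libraries of different Bmp4 and Fst levels and were not tested.

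Bmper encodes a secreted BMP-binding protein that can act for or against the signal, and over regions its levels followed those of Bmp4. LER/OS-like cells read 73.0 and 55.6 CPM at E14, 71.7, 60.3 and 74.3 CPM at E16 and 115, 101, 69.2 and 69.4 CPM at P1, above every value in the medial and sensory domains. Hensen-like cells read 25.1, 36.3 and 33.7 CPM of Bmper at E16 and 23.0, 39.9, 11.7 and 25.9 CPM at P1, between the LER/OS-like cells and the remaining regions. The lateral domain was higher by 2.67 at E14 (SE 0.22, limma's adjusted p = 3.77e-16), 2.19 at E16 (SE 0.13, adjusted p = 5.74e-23) and 2.28 at P1 (SE 0.12, adjusted p = 7.23e-28). Hensen-like cells were below LER/OS-like cells in Bmper by 1.52 at P1 (SE 0.20, adjusted p = 1.19e-08), in every alternative. At E16 the difference of -0.92 (SE 0.23, adjusted p = 0.00287) was lost in the weighted fit (adjusted p = 0.168). Within LER/OS-like cells of E16, Bmper was 112 to 137 CPM in the Fbln2 cluster with the most Bmp4, 13.4 to 31.5 CPM in the cluster led by Lgals1 and 28.8 to 141 CPM in that led by Tac1. At E14 Bmper was 72.6 to 110.1 CPM in the Tac1 and 19.1 to 23.6 CPM in the Lgals1 cluster, without overlap. The Bmp4 values of these clusters overlapped, though the lower and the higher value were both greater in the Tac1 cluster.

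Inhba, which encodes the beta A subunit of activin A and of inhibin A, had its highest region means in lateral supporting-like cells at E14 and P1, in Hensen-like cells at E16 and in medial supporting-like cells at P7. Lateral supporting-like cells read 64.6 and 139 CPM at E14, 85.0, 107 and 144 CPM at E16, 117, 149, 173 and 191 CPM at P1 and 59.6 and 72.3 CPM at P7. At E14 LER/OS-like cells read 20.5 and 27.6 CPM of Inhba and, being more numerous, held 42.5% of its UMIs, against 27.5% in lateral supporting-like cells. Hair cell-like cells read 22.5 and 46.3 CPM of Inhba at E14 and at most 20.8 CPM at E16, P1 and P7. Medial supporting-like cells read 5.69 and 9.75 CPM at E14, where the same cells carried Fst, and 57.7 to 157 CPM at E16, 69.2 to 176 CPM at P1 and 99.9 and 50.2 CPM at P7. The E14 and E16 medial supporting-like values did not overlap for either gene, Inhba being higher and Fst lower at E16. The clusters compared had different leading genes, Fgf20 at E14 and Matn4 at E16, and the part of cell make-up was not tested. Over the whole sensory domain the Inhba step between these ages was 0.39 and not called, and with coarser clusters it was called as a fall.

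Within the sensory domain, Inhba in lateral supporting-like cells exceeded the mean of the other regions by 1.94 at E14 (SE 0.39, limma's adjusted p = 0.000783, lost without E14 replicate 2), by 1.62 at E16 (SE 0.32, adjusted p = 7.20e-05) and by 1.75 at P1 (SE 0.28, adjusted p = 3.72e-07). At P7 the difference was 0.80 (SE 0.39, adjusted p = 0.155). The sensory domain as a whole was higher in Inhba by 1.10 at E14 (SE 0.27, adjusted p = 0.00214, lost without E14 replicate 2), 0.82 at E16 (SE 0.19, adjusted p = 0.000506, lost without E16 replicate 3), 1.44 at P1 (SE 0.17, adjusted p = 1.77e-11) and 1.51 at P7 (SE 0.29, adjusted p = 2.69e-05). The lateral domain was higher as well, by 1.14 at E16 (SE 0.21, adjusted p = 2.06e-05) and 0.96 at P1 (SE 0.18, adjusted p = 2.32e-05), and the medial domain was lower at each of E14, E16 and P1. Hensen-like cells read 207, 137 and 40.5 CPM of Inhba at E16, against 36.1, 39.4 and 11.4 CPM in LER/OS-like cells, a difference of 1.68 (SE 0.37, adjusted p = 0.000571) that was lost in the weighted fit (adjusted p = 0.0661). At P1 that difference was 0.36 (SE 0.32, adjusted p = 0.535).

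**Figure D4:**
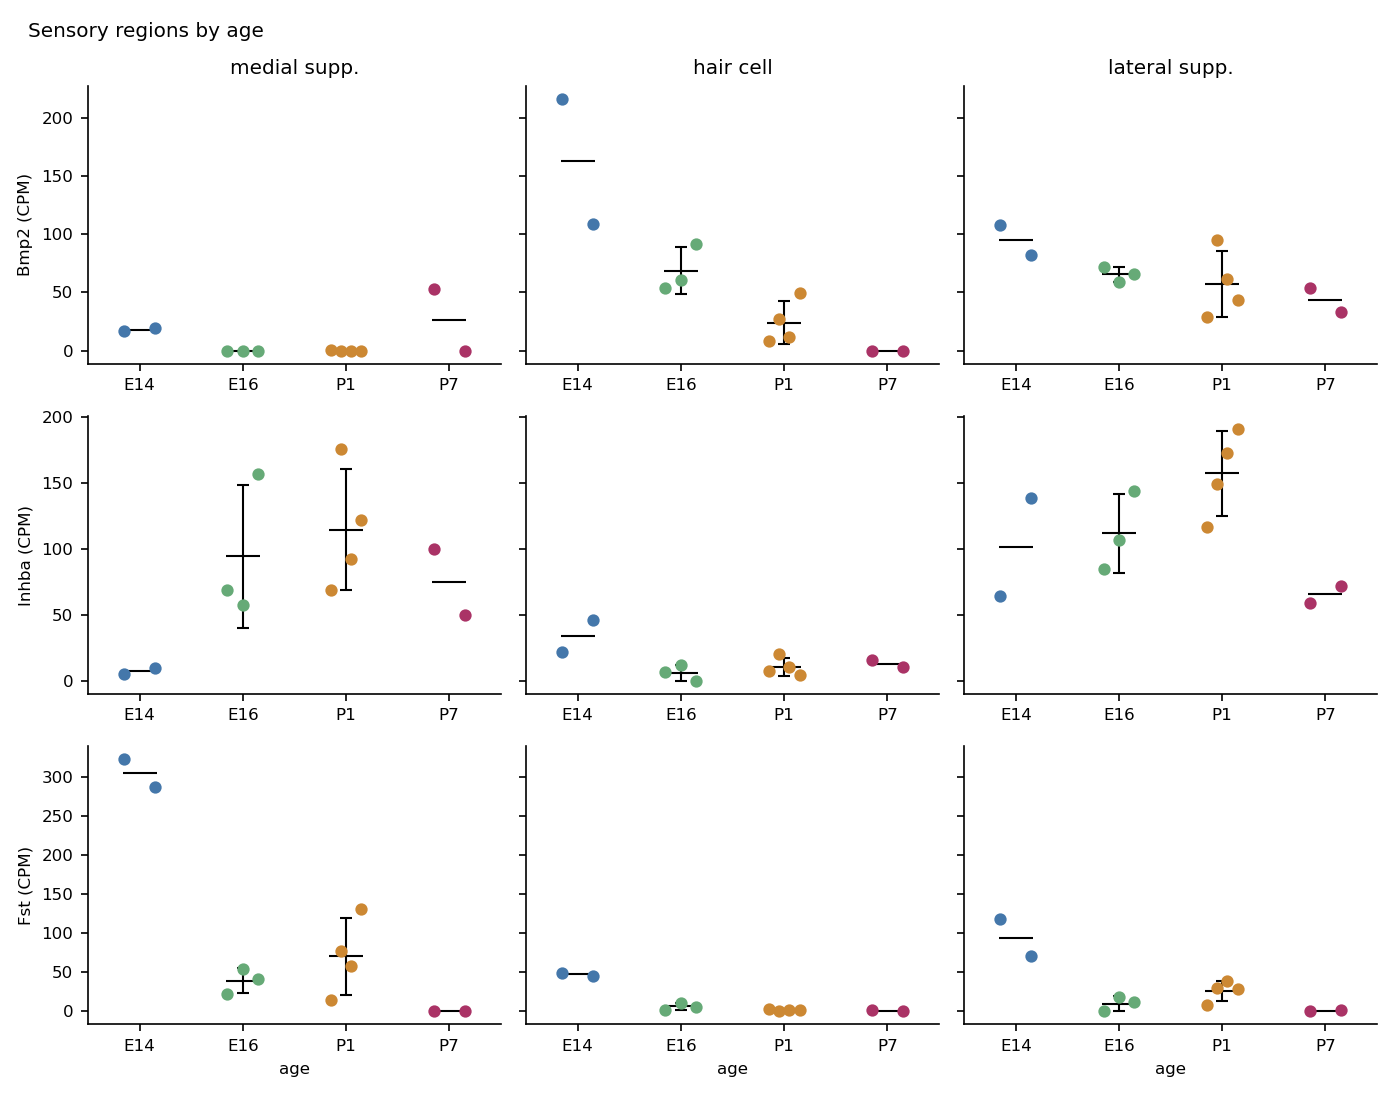
Levels of Bmp2, Inhba and Fst (CPM) by age in medial supporting-like, hair cell-like and lateral supporting-like cells, one point per library. Horizontal marks are means, with SD bars where there were at least 3 libraries. Bmp2 in hair cell-like cells was 109 and 216 CPM at E14 and 0 at P7, and in medial supporting-like cells Fst was high at E14 and Inhba from E16 on. The medial supporting-like cluster was led by Fgf20 at E14 and by Matn4 at E16 and P1.

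Inhba and Bmp2 shared the lateral supporting-like region, but few cells held UMIs of both. After thinning, P1 lateral supporting-like cells showed Inhba in 17.5% of the 63 cells with a Bmp2 UMI and in 17.7% of the 899 cells without one. At E16 the shares were 4.55% of 22 and 17.8% of 343 cells. These shares are limited by the low counts of both genes and were not tested.

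The receptor subunits showed no comparable regional pattern. Bmpr1a, a type I receptor for BMP2 and BMP4, had region means between 21.7 and 105 CPM, and Bmpr2, the type II receptor, between 6.55 and 54.2 CPM. None of their 20 domain differences was called, and these lay between -0.42 and 0.39 for Bmpr1a (SE 0.17 to 0.36) and between -0.27 and 0.25 for Bmpr2 (SE 0.15 to 0.32). The SE bounds the regional differences that could have gone unseen, and it was widest at E14 and P7 with 2 libraries each. The lower Bmpr1a of the P1 sensory domain (-0.41, SE 0.17, limma's adjusted p = 0.0508) was called in 12 of 25 alternatives, among them the fit with sample weights (adjusted p = 0.00529), and 5 other receptor differences were called in 1 to 3 alternatives each. Hair cell-like cells had the lowest mean of Bmpr1a of all tested regions at E16, P1 and P7, at 30.5, 21.7 and 22.1 CPM, but their library values overlapped those of the region next in order at each age.

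Receptor levels also varied between libraries of an age. E16 replicate 1 had the highest Bmpr1a of the 3 libraries in 6 of 8 regions and P1 replicate 4 the highest of 4 in 6 of 8. In medial KO-like cells Bmpr1a read 29.6, 29.3, 31.1 and 56.4 CPM at P1, and E16 replicate 1 had the highest Bmpr2 in all 8 regions at E16. These libraries had the lowest median depths of their ages, at 2478 UMIs per cell for E16 replicate 1 and 3831.5 for P1 replicate 4, and the part of depth in these levels was not tested. The medial domain of Bmpr2 fell by 0.86 from E16 to P1 (SE 0.24, limma's adjusted p = 0.00907), a call that was lost without E16 replicate 1.

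Bmpr1b, the other type I receptor of the list, was close to the limit of detection. Its region means lay between 0 and 9.23 CPM, and after thinning it was detected in at most 2.24% of the cells of any region of the 3 domains (3 of 134 medial supporting-like cells at E14). Within E16 and within P1 its highest means were in Oc90-positive roof-like cells, at 8.74, 25.8 and 5.97 CPM in the E16 libraries and 12.5, 5.77, 8.95 and 8.72 CPM at P1, which were placed outside the 3 domains. Differences of Bmpr1b between regions were not tested.

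Changes with age were fewer than differences between domains. From E14 to E16 2 of 24 tests of the 8 genes were called, against 6.98% over all genes and domains. From E16 to P1 4 of 24 were called, against 12.9%, and from P1 to P7 2 of 16, against 17.2%. These shares were close to the background in the main fit. Further medial steps were called in limma's fit with sample weights, whose share over all genes is not given. They were Bmp7 from E14 to E16 (-0.53, adjusted p = 0.00288) and Bmpr1a from E16 to P1 (-0.77, adjusted p = 6.65e-05). From P1 to P7 they were Bmp2 (0.56, adjusted p = 0.00583), Bmper (-0.56, adjusted p = 0.000154), Inhba (0.54, adjusted p = 0.0123) and Bmpr1a (-0.50, adjusted p = 0.0204). By domain the steps from E14 to E16 were called for 5.64% of genes medially, 13.6% in the sensory and 1.67% in the lateral domain, and those from E16 to P1 for 12.6%, 13.9% and 12.4%. From P1 to P7 they were called for 17.3% medially and 17.1% in the sensory domain. Within domains 1 of 16 was called at E14 against 1.24%, 6 of 24 at E16 against 12.5%, 7 of 24 at P1 against 13% and 1 of 8 at P7 against 18.6%. The interdental contrast was called for 0.406% of genes at E14, 4.64% at E16 and 7.89% at P1, that of lateral supporting-like cells for 2.07%, 15.3% and 19.2%, and the Hensen-like contrast for 17.6% at E16 and 12% at P1. Successive age steps share the libraries of the age between them.

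Other genes of the pathway were read from a list of 58, of which 33 passed the filter. Their calls are from the main fit and are not given under sample weights. In the lateral domain at P1, 1 of 5 ligands tested was called, Gdf11, a BMP-related ligand, which was lower by 0.48 (SE 0.14, limma's adjusted p = 0.00821). The P1 mean of Gdf11 was 30.8 CPM in hair cell-like cells, 6.74 CPM in LER/OS-like and 4.31 CPM in Hensen-like cells. In the remaining regions it was 5.75 to 11.3 CPM. Of 7 antagonists 1 was higher and 2 were lower. Over all genes 24.5% were called in this contrast, so 1 of 5 ligands is below and 3 of 7 antagonists above that share. Nog, a secreted BMP antagonist, was higher by 0.68 (SE 0.14, adjusted p = 0.000105), while Fstl1 and Nbl1 were lower by 0.75 (SE 0.11, adjusted p = 1.86e-07) and 0.80 (SE 0.16, adjusted p = 8.07e-05). The P1 mean of Nog was 19.8 CPM in LER/OS-like, 18.3 CPM in interdental-like and 7.77 CPM in Hensen-like cells. Nbl1 was highest in interdental-like cells (142 CPM), then in lateral supporting-like (46.9 CPM) and medial KO-like cells (37.9 CPM). Its LER/OS-like (10.4 CPM) and Hensen-like (11.2 CPM) means were above those of the remaining regions. Fstl1 was lowest in hair cell-like cells (107 CPM). Nog had also been higher laterally at E14 and E16, by 2.17 and 1.24, and Sostdc1, another secreted antagonist, was higher laterally at E14 and E16 by 2.46 and 1.42. At E14 Gdf6, another ligand, was higher laterally by 1.23. The median lateral difference of the 5 ligands at P1 was -0.11 and that of all genes -0.03.

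Of the 7 other receptors and co-receptors, Acvr2b, Bambi and Rgmb were higher in the lateral domain at P1, by 0.78, 0.62 and 0.58, and Rgma was lower by 0.92. The P1 mean of Acvr2b was highest in LER/OS-like cells (90.9 CPM). That of Bambi was highest in lateral supporting-like cells (197 CPM), against 155 CPM in LER/OS-like, 103 CPM in Hensen-like and 12.7 CPM in hair cell-like cells. Rgma was highest in interdental-like (244 CPM) and lowest in hair cell-like cells (7.24 CPM), with 24.3 CPM in Hensen-like and 51.9 CPM in LER/OS-like cells. Rgma and Rgmb encode co-receptors for BMPs, and Bambi a decoy receptor without a kinase. Rgma was lower laterally at E14 and E16 as well, Bambi was higher at E14 by 1.42, and Acvr2a, a type II receptor, was lower at E16 by 0.91. Of 9 genes of signal transduction 2 were called at each of E14, E16 and P1, both higher laterally, and they were Smad6 and Smad7, the inhibitory SMADs. Against 4.45%, 21.3% and 24.5% of all genes called at these ages, 2 of 9 was near the background at E16 and P1. Smad6 was higher by 1.45 at E16 and by 1.64 at P1 (P1 SE 0.19, limma's adjusted p = 5.27e-11) and Smad7 by 1.55 at E14, 0.84 at E16 and 0.73 at P1 (P1 SE 0.22, adjusted p = 0.00772). The receptor-regulated Smad1 and Smad5 were not called in the lateral domain, with differences between -0.33 and 0.28, and Smad9 was not tested. Smad6 read 139.8 ± 85.0 CPM in LER/OS-like cells at P1 (SD, n = 4) and 67.2 ± 37.0 CPM in Hensen-like cells, against 14.5 to 41.0 CPM in the remaining regions.

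Of 5 target genes tested, 4 were higher in the lateral domain at E14 (Id2, Id3, Id4 and Msx1), 3 at E16 (Id2, Id4 and Msx1) and 4 at P1 (Id2, Id3, Id4 and Msx1), and none was lower. Over all genes, 2.46%, 8.52% and 10.5% were called higher laterally at these ages. The Id genes encode inhibitors of basic helix-loop-helix factors, and Msx1 a homeodomain protein. The median difference of the 5 was 1.28, 0.42 and 0.74 at these ages, and that of all tested genes lay between -0.06 and 0.03. At P1 Msx1 was higher by 1.45 (SE 0.15, limma's adjusted p = 2.58e-12), Id2 by 0.94 (SE 0.12, adjusted p = 3.29e-09) and Id3 by 0.74 (SE 0.18, adjusted p = 0.000884). At P1 the mean of Id3 was not highest in LER/OS-like cells. It was 728 CPM there, against 961 CPM in Hensen-like, 975 CPM in medial supporting-like and 913 CPM in lateral KO-like cells. Library values of these regions overlapped (405 to 1411 CPM in LER/OS-like and 470 to 2186 CPM in Hensen-like cells). The lowest means of Id3 were 93.7 CPM in hair cell-like and 325 CPM in interdental-like cells. At E14 Id3 was highest in LER/OS-like cells, at 1997 CPM, with lateral supporting-like cells next at 1394 CPM. In the medial domain all 5 targets were lower at E14, against 4.29% of all genes. They were Id2, Id3, Id4, Msx1 and 1 more, which was not called in the lateral domain at E14, E16 or P1. Id4 and Msx1 remained lower in the medial domain at E16 and P1. In the sensory domain Id4 was higher at every age, by 0.83, 0.97, 1.14 and 0.63. Other targets called in the sensory domain were lower, namely Msx1 at E14, E16 and P1 (by 1.27, 0.45 and 0.70), and Id2 and Id3 at P1 (by 0.88 and 0.69) and P7 (by 2.24 and 0.78). At P7, without a lateral domain to compare, Gdf6 was higher in the sensory than in the medial domain by 2.45 (SE 0.24, adjusted p = 1.31e-13).

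**Figure D5:**
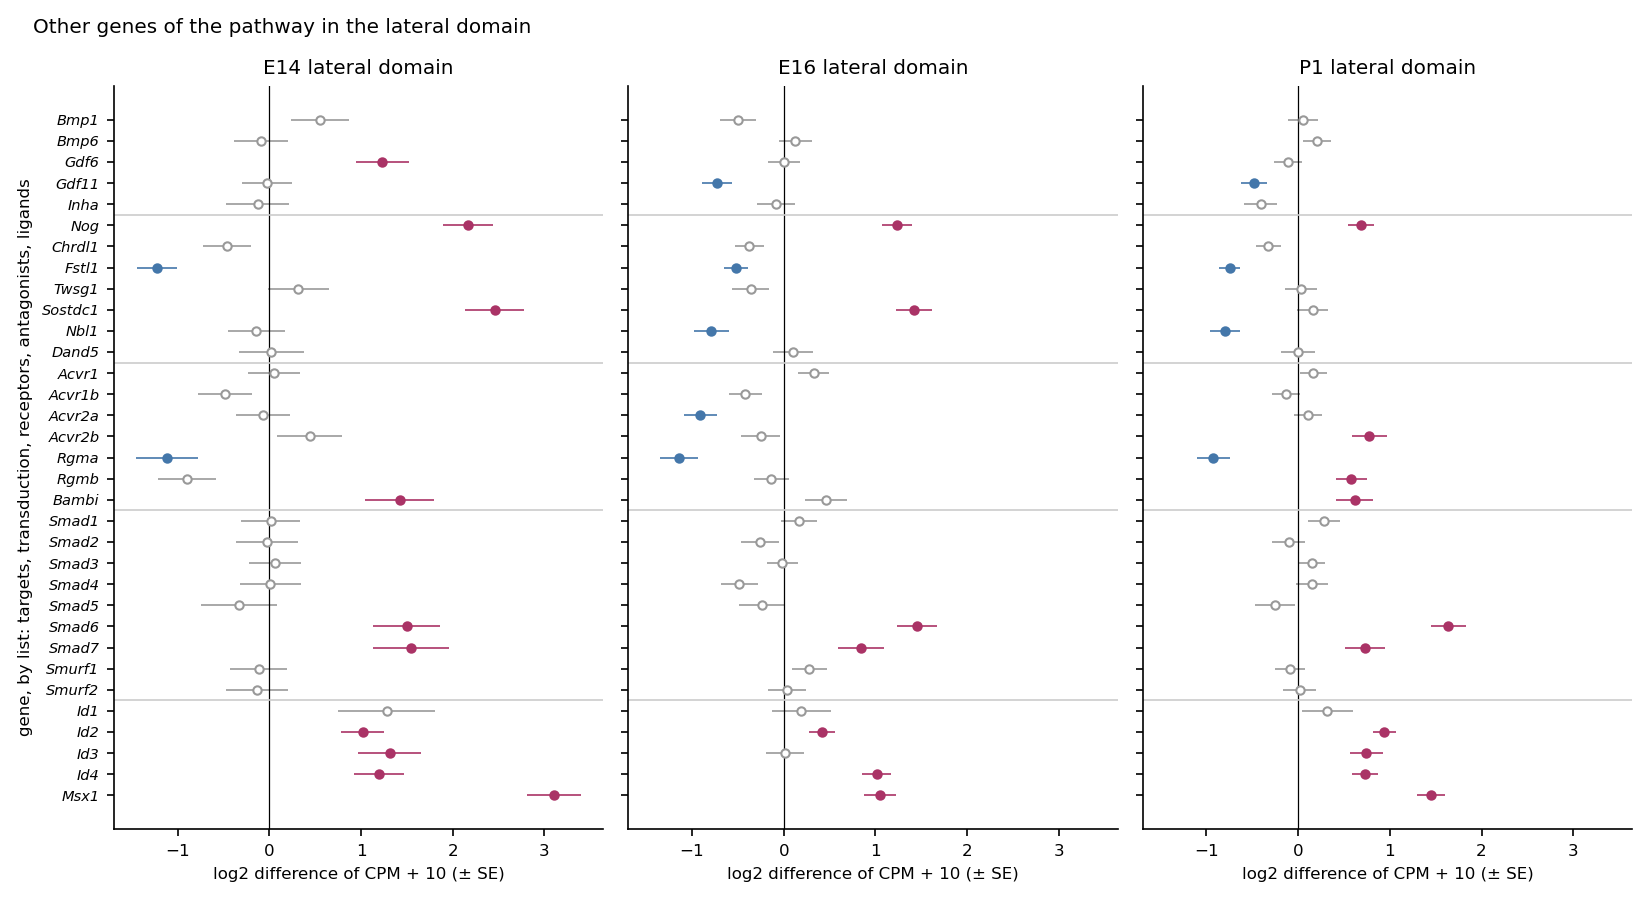
Log2 difference of the lateral domain from the other domains for the other pathway genes that passed the filter at E14, E16 and P1, grouped by role, with called differences filled and bars of 1 SE. Smad6, Smad7, Id2, Id4, Msx1 and Nog lay to the right of 0 at every age, and Fstl1 and Rgma to the left.

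Over the 27 age by region means, Bmp4 was most like Bmper (Pearson's r of log2(CPM + 10) 0.95), Fbln2 (0.94) and Gm15222 (0.93), the last of which overlaps it. Bmper was most like Fbln2 (0.97), Cgnl1 (0.96) and Bmp4, and Fst most like Unc5c (0.91), Fbln7 (0.90) and Enc1 (0.90). Bmp2 was most like Kcnh6 (0.83), Inhba most like Serpine2 (0.91) and Bmp7 most like Lpar1 (0.81). Among the members, r was 0.89 for Bmp4 with Fst, 0.71 for Bmp4 with Bmp7, 0.34 for Bmp4 with Inhba and -0.12 for Bmp4 with Bmp2. The 27 points share libraries and clusters, so these values only describe.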

How the data were processed

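Single-cell RNA of the epithelial floor of the cochlear duct was measured in 11 droplet libraries (10x Chromium). The authors deposited natural log values: each gene's UMIs in a cell were divided by that cell's total, scaled to a fixed total, and the logarithm taken after adding 1, made with Cell Ranger 2.1.1 on mm10 and Seurat 2.0 per the submitters' processing notes. UMI totals per cell were recovered from the smallest step of these values, so shares and sums rest on whole UMIs. Ambient RNA was not removed here.

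Cells of each age were clustered (scanpy 1.11.5, leidenalg 0.10.2, resolution 3, 30 principal components, 2000 genes, without the 9 genes or the other pathway genes) and placed by marker lists, most of them taken from the study's tables on these same libraries. Score thresholds (at least 0.2, leading by 0.15, for Hensen-like 1) were set after the clusters were seen. Clusters with more leading markers of another class were set aside (297 E14, 1201 P1 and 150 P7 cells). No doublet caller was run. An alternative left out cells over 3000 genes or 15000 UMIs.

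Mean CPM per library and region (at least 10 cells in at least 2 libraries, 78 values in 27 groups) were taken as log2(CPM + 10) and fitted once with limma 3.58.1 (R 4.3.3, moderated test with mean trend, two-sided, library as random block with correlation 0.210, 51 residual degrees of freedom) over 11082 genes of mean at least 5 CPM, with Benjamini-Hochberg adjustment per contrast. Adjusted p-values rest on the residual spread of library by region values, shared over regions and ages. Domains were compared within libraries, so this is not the spread between captures. In age steps the regions of a capture count as separate values linked only by that correlation, so these p-values may be too small. The tests of differences between age steps were added after the data were seen. On simulated data for the lateral domain at P1 (11133 genes), 98% of genes changed 2-fold and 100% of those changed 4-fold were recovered, but 25.6% of calls were false. With limma's sample weights, added for that reason, 6.16% were false, so calls of the 8 genes lost under these weights are named. Their age steps called only under these weights are named as well. Calls of the other pathway genes are from the main fit, and their single results under the weights are not given. Binomial intervals are exact 95% intervals, floors are 3 counts.

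The 9 genes, the pathway and marker lists and the tests were chosen with earlier results of these data known. All 9 genes were named. Of the other pathway genes, the rule named per list the 3 with the largest absolute difference among those called laterally at P1, and all members of counts of 5 or fewer. Of the target genes, 1 in such a count was left unnamed. The 3 genes outside the marker lists with the highest Pearson's r to a member were ranked as most like it. Other pathway genes were chosen after their values were seen. Positions are from GENCODE vM21 (GRCm38), and the promoter sequences from RefSeq (GRCm38.p6).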

Additional observations from a re-analysis of the deposited data

Results flagged for a closer look

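In 10 of 70 groups of 4 P1 libraries, 1 library stood apart from the other 3 by Dixon's criterion. Where 3 libraries read 0, any count in the remaining one meets this criterion. The number of groups is therefore not set against a rate by chance. P1 replicate 4 was high for Bmpr1a in medial KO-like (56.4 CPM) and medial supporting-like cells (73.9 CPM), for Bmp2 in lateral KO-like cells (1.57 CPM) and for Bmper in medial supporting-like cells (1.51 CPM). It was set apart for Bmper in interdental-like cells as well (0.225 CPM). P1 replicate 1 stood apart for Bmp4 in medial KO-like (2.43 CPM) and hair cell-like cells (0.457 CPM), for Bmp2 in medial supporting-like cells (0.871 CPM) and for Bmpr1b in Hensen-like cells (1.26 CPM). P1 replicate 3 read 23.4 CPM of Bmpr1b in medial supporting-like cells, from 2 UMIs. Apart from Bmpr1a and from Bmp4 in medial KO-like cells (20 UMIs), each of these rested on 1 or 2 UMIs.

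Of 56 tests of whether 2 domains changed differently between ages, 6 were called by limma. From E14 to E16, the log2 step of Fst in the sensory domain minus that in the medial domain was -2.81, and the lateral minus the sensory step was 2.24. From E16 to P1, the lateral step of Fst minus the medial one was 1.83 and minus the sensory one 1.37, and the sensory minus the medial step of Bmp4 was -0.84. From P1 to P7, the sensory minus the medial step of Fst was -1.43.

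In cells of a named kind outside the comparisons, 12 levels with at least 3 UMIs were above every tested region of the same age. The P7 LER/OS-like cells (16 cells) read 1172 CPM of Bmp4, 416 CPM of Bmp7, 136 CPM of Fst and 38.8 CPM of Bmper, and the P7 Hensen-like cells (19 cells) read 545 CPM of Fst. P7 mesenchyme-like cells read 69.6 CPM of Bmp2, 27.0 CPM of Bmper and 4.91 CPM of Bmp4, and P7 glia-like cells 7.89 CPM of Bmp4. Roof-like cells read 13.5 CPM of Bmpr1b at E16 and 8.97 CPM at P1. The 5 mesenchyme-like cells of E14 read 105 CPM of Bmpr1a. Unplaced cells, which are not among the 12, were also above every tested region in Bmp2 (97.4 CPM) and Bmpr1b (7.87 CPM) at E16 and in Fst (149 CPM) and Bmp4 (3.23 CPM) at P7, and so was 1 unplaced cluster of E14 in Fst, given above.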

How the results depend on the processing

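Of 75 called differences of the 8 genes, 46 were kept in every alternative and 29 were lost in some, and none of the 75 reversed. Of 141 not called, 104 stayed so and 37 were called in some alternatives. Counts of called differences that moved by over 1.5 times were as follows. With a filter of 20 CPM they were 9 (main 15) by domain at E14, 4 (main 7) within domains at P1, 0 (main 1) within domains at P7, 1 (main 2) for the step from E14 to E16 and 2 (main 4) for that from E16 to P1. With a gate on single cells in place of clusters they were 2 (main 6) within domains at E16, 3 (main 1) within domains at P7 and 1 (main 2) for E14 to E16. By domain at P7 (main 2) they were 1 with means of the deposited log values, 4 with sample weights, 1 without cells of high genes or UMIs and 4 with at least 30 cells per region. For P1 to P7 (main 2) they were 1 with a pseudocount of 50 CPM, 0 with means of log values and 6 with sample weights. Coarser clusters gave 4 (main 2) for E14 to E16. Leaving out 1 library in turn gave 11 to 15 by domain at E14, 16 to 18 at E16, 16 to 18 at P1 and 1 to 4 at P7. It gave 0 to 1, 4 to 7, 5 to 8 and 0 to 1 within domains at these ages, and 1 to 2, 3 to 6 and 1 to 2 for the successive steps. A lone library of an age was assumed to vary like the others.

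Differences that reversed were all uncalled in the main analysis. They were Fst in the E14 sensory domain (-0.56 with means of log values, -1.18 with coarser clusters), Fst in lateral supporting-like cells at E16 (1.38 with coarser clusters) and at P7 (-1.45 with the gate), the E14 to E16 sensory steps of Bmp7 (-1.21) and Inhba (-1.45), both with coarser clusters, and the P1 to P7 medial step of Fst (0.95 with the gate). The cause was not tested.

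Replicate numbers were shared between ages by name only: same-numbered libraries correlated at -0.226 to 0.0759. With the replicate block, 7 differences were called from E16 to P1 in place of 4, and 215 of other pathway genes in place of 210. Low counts limit every level of Bmpr1b, and the number of cells limits the P7 lateral levels.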

Other observations

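In LER/OS-like cells the level of Fst divided by that of Bmp4 was 1.47 to 1.53 over the 3 E16 libraries. The E14 libraries gave 0.779 and 2.04, and the 4 P1 libraries spread from 0.777 to 8.01, with P1 replicate 1 lowest. The P7 libraries, with few cells, gave 0.117 and 0.116. In Hensen-like cells the same ratio was 1.17 to 2.19 over the E16 libraries and 12.4 to 33.2 over the P1 libraries, without overlap.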
